A study of Mus musculus with 24 samples.

Results

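The genes followed here are the 3 D-type cyclins (Ccnd1, Ccnd2 and Ccnd3), their partner kinases Cdk4 and Cdk6, and 5 inhibitors of these complexes (Cdkn1a, Cdkn1b, Cdkn2a, Cdkn2c and Cdkn2d). They were chosen by name, as the components that start the cell cycle, and all 10 were present in each of the tables, which list 24421 genes for CALM-AF10 and for Jak1, 24557 for MLL-AF10 and 24340 for MLL-AF9. All 10 also passed the filter on low values in each of the 4 comparisons. The measurements are RNA levels from RNA-seq of cultured mouse leukemia cells, in 24 libraries that form 8 groups of 3. The molecule is given as total RNA for MLL-AF9 and as polyA RNA for the others.

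D-type cyclins are made in response to growth signals and bind Cdk4 or Cdk6. The active complex phosphorylates the retinoblastoma protein, which releases E2F transcription factors and lets a cell enter S phase. INK4 proteins (encoded by Cdkn2a, Cdkn2c and Cdkn2d, among others) bind the kinases themselves and keep the cyclin away, whereas Cip/Kip proteins (encoded by Cdkn1a and Cdkn1b, among others) bind whole cyclin-kinase complexes and are known above all as inhibitors of Cdk2. In blood-forming cells Cdk6 and Ccnd3 are widely used members of the kinase and cyclin families, and Cdk6 is a known target gene of MLL fusions.

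In all groups the cells were leukemia cells of C57BL/6 bone marrow, cultured with 15% serum and with SCF (20 ng/ml), IL3 (6 ng/ml) and IL6 (100 ng/ml). For 3 models the titles name a fusion gene, iCALM_AF10, iMLL_AF10 or iMLL_AF9, which doxycycline (DOX) switched on or off, and their groups are DMSO and DOX. Their genotype is given as wild type. The 4th model, CALM_AF10_Jak1, compared cells of genotype Jak1 floxed with cells of genotype Jak1 deleted, in which 4-hydroxytamoxifen (4-OHT) had activated Cre-ER. All cells of that model carried CALM-AF10, floxed controls included. The sources used here do not give doses, times, the promoter that drives each fusion or the number of clones. Cells given DOX without a fusion, or 4-OHT without a floxed gene, were not analysed here. Whether the replicates of a group were separate cultures is not stated in the labels, so each p-value measures only how far these libraries scatter, and that scatter may be technical.

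The 6 CALM-AF10 libraries held 12130633 to 40187404 counts, the lowest being off 3, and the 6 Jak1 libraries 11743388 to 13764632. For both MLL models the depth is unknown. All 10 myeloid markers (among them Ptprc, Spi1, Mpo and Kit) passed the filter in each table. The erythroid, T cell and B cell genes Hba-a1, Alas2, Cd3e, Cd8a, Ms4a1 and Pax5 were at or near 0. Other genes of these lists did pass, from 3 erythroid, 1 T cell and 1 B cell gene in CALM-AF10 to 1 T cell gene in MLL-AF9. Columns of the CALM-AF10 table are named on and off, which no source used here ties to DMSO and DOX. Picalm, which encodes CALM, was lower in the off libraries (1489 ± 133 against 2567 ± 86.2 CPM, counts scaled to library size), and Kmt2a, which encodes MLL, was lower with DOX in MLL-AF10 (by 0.59 on the log2 scale) and in MLL-AF9 (5.61 ± 0.413 against 13.7 ± 0.255 FPKM). Mllt3, which encodes AF9, was not called in MLL-AF9 (−0.33, adjusted p = 0.378). Jak1 itself stood at 196.3 ± 1.54 CPM in floxed and 157.7 ± 6.81 in null libraries (−0.32 on the log2 scale, adjusted p = 2e-08, quasi-likelihood test of edgeR). Which exons were deleted was not known here, so reads of undeleted exons cannot be told apart from undeleted cells, and null is used here as the label of these libraries. Picalm was also lower in the null libraries (408.8 ± 11.1 against 583.8 ± 7.92 CPM, −0.51, adjusted p = 5.32e-15), and so was Mllt10, which encodes AF10 (−0.10, adjusted p = 0.0135). The part of these differences in the results on Jak1 was not tested.

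Levels are counts scaled to library size (CPM) after TMM scaling, which corrects for RNA composition, in CALM-AF10 and Jak1, the deposited log2 values in MLL-AF10, and FPKM (fragments scaled to transcript length and library size) in MLL-AF9. Values are mean ± SD with n = 3 libraries a group, changes are log2 fold changes ± SE, and a gene counts as risen or fallen where the p-value adjusted over all genes of its table is under 0.05. The tables were normalized separately and the MLL-AF10 scale may shrink changes, so sizes were not tested between tables.

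Cdkn2c fell in each of the 4 comparisons, and it was the only member that passed the test in all of them. Cdk6 fell in 3 comparisons (MLL-AF10, MLL-AF9 and Jak1), and Ccnd3 and Cdkn1a rose with DOX in both MLL models and fell in the libraries labelled Jak1 null. With CALM-AF10 off 0 members rose and 1 fell, where 2.13% of the 12366 genes tested rose and 3.11% fell. With DOX in MLL-AF10 2 members rose and 5 fell, against 10.6% and 9.17% of 10553 genes. With DOX in MLL-AF9 5 rose and 2 fell, against 7.23% and 4.54% of 10881 genes. In Jak1 null cells 2 rose and 8 fell, against 27.4% and 28.3% of 11607 genes, so calls were common in that table. The median log2 fold change of the members was −0.08 in CALM-AF10, −0.02 in MLL-AF10, 0.27 in MLL-AF9 and −0.53 in Jak1, while the medians of all genes tested lay between −0.02 and 0.01.

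**Figure D1:**
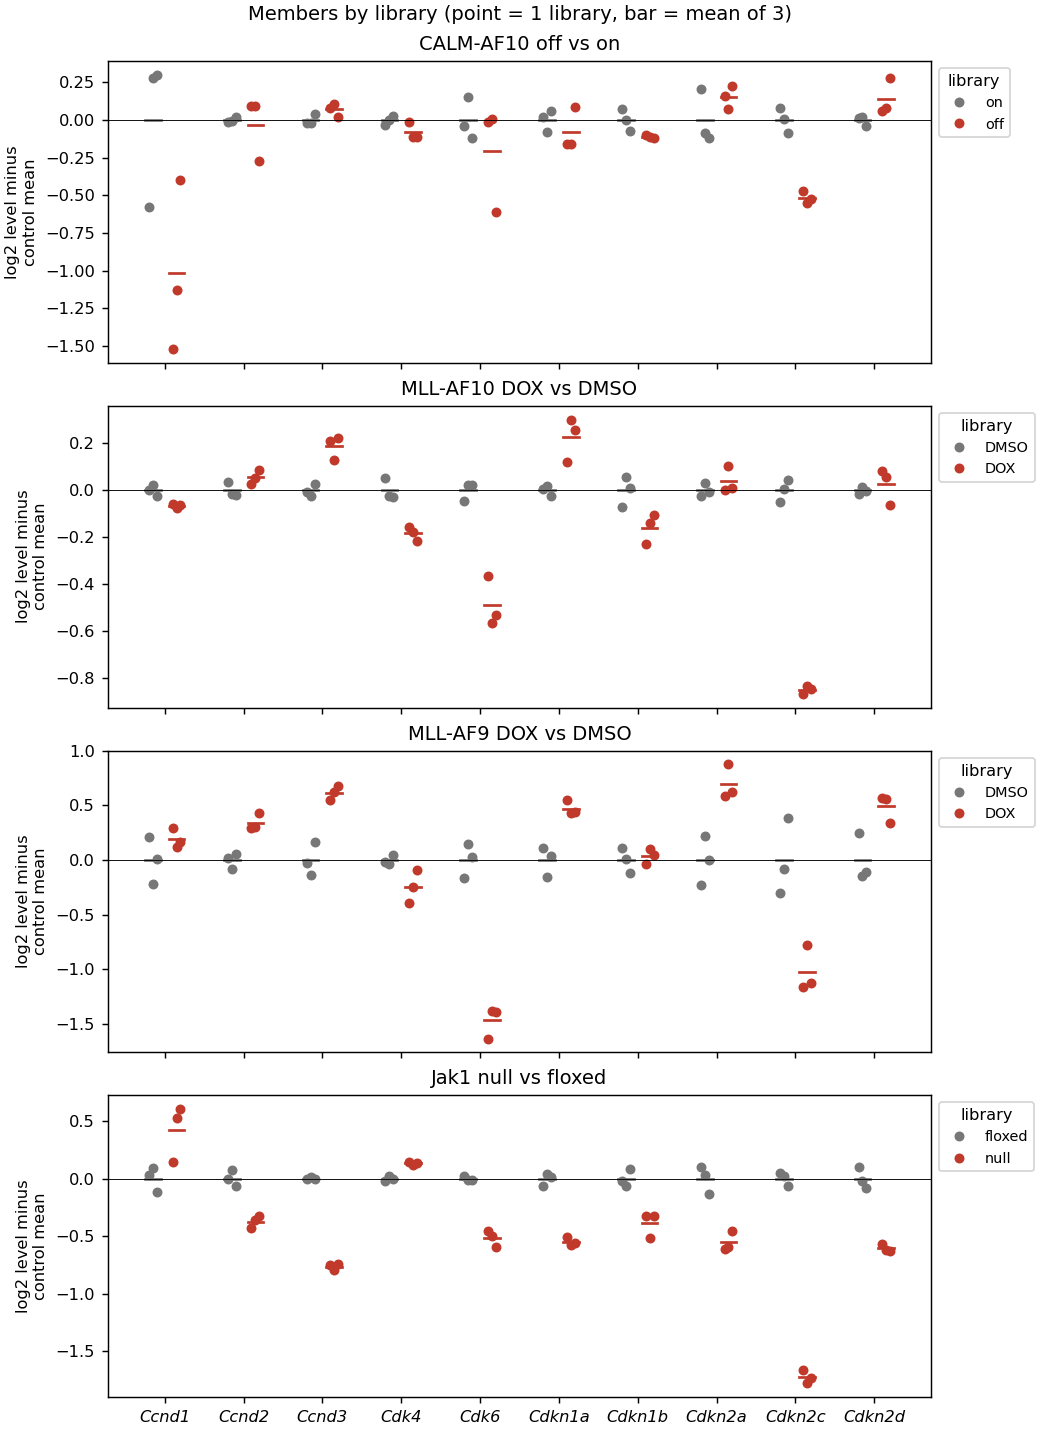
Log2 level of each member in each library, minus the mean of the 3 control libraries, in 4 panels with their own vertical scales. Grey points are control libraries (on, DMSO or floxed), red points off, DOX or null libraries, and bars are means of 3. Cdkn2c is lower in every red library of all 4 panels.

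The markers of maturing neutrophils moved in the same comparisons. In CALM-AF10 6 of the 7 tested rose and 0 fell, and their summed level went from 224.5 to 255.8 CPM across on libraries to 450.9 to 766.1 CPM across off libraries. In MLL-AF10 6 of 6 tested rose with DOX. In MLL-AF9 8 of 8 rose, from a summed 8512 to 10424 FPKM with DMSO to 33580 to 47657 FPKM with DOX. In Jak1 null cells 2 of 8 tested rose and 5 fell, and the sum was 3963 to 4115 CPM in floxed and 2940 to 3107 CPM in null libraries. Other markers moved as well. Of 6 mast cell and basophil genes tested 2 rose with CALM-AF10 off (summed 310.6 to 343.7 CPM on, 366.7 to 415.5 CPM off), and 2 of 4 tested rose in MLL-AF10. Of 5 megakaryocyte genes tested 1 fell with CALM-AF10 off (336.7 to 348 CPM on, 287.2 to 304 CPM off). There 0 of 2 stromal genes tested were called (summed 64.8 to 72 CPM on, 58.2 to 69.5 CPM off). The erythroid, T cell and B cell lists had 0 calls there. Their sums were 4.11 to 5.26, 6.72 to 9.35 and 5.05 to 5.49 CPM on, and 3.57 to 5.86, 6.04 to 6.44 and 4.7 to 5.16 CPM off. In Jak1 2 of 2 megakaryocyte genes tested fell (11 to 12.4 CPM floxed, 1.14 to 2.36 CPM null) and 2 of 2 stromal genes tested rose (9.39 to 11 CPM floxed, 22.2 to 25.3 CPM null). The 1 T cell gene tested fell in Jak1 (list sum 5.84 to 6.79 CPM floxed, 3.4 to 3.85 CPM null), and the 1 stromal gene tested fell in MLL-AF10. All marker counts are to be read against the shares of all genes given above, in Jak1 27.4% risen and 28.3% fallen. Of the 10 myeloid markers 4 rose and 1 fell in CALM-AF10, 6 and 1 in MLL-AF10, 1 and 2 in MLL-AF9 and 6 and 3 in Jak1. The part of any of these lists in the results on the members was not tested. In such bulk libraries fewer cells of a type and less RNA per cell cannot be told apart.

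The D cyclins are encoded on chromosome 7 from 152115836 to 152125774 (Ccnd1), chromosome 6 from 127075797 to 127101066 (Ccnd2) and chromosome 17 from 47642000 to 47736632 (Ccnd3) of mm9. These and the spans below are whole genes of the GENCODE annotation, exons and introns included.

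Ccnd3, which encodes the D cyclin with the highest level per length in all groups where length could be used, moved in opposite directions in the MLL and Jak1 comparisons. With DOX in MLL-AF9 it rose from 89.3, 83 and 102 FPKM in the DMSO libraries to 133.8, 140.4 and 146.7 FPKM (0.62 ± 0.093, adjusted p = 0.00667 by limma). All 3 DOX libraries lay above all DMSO libraries, and the call remained when any 1 library was left out (adjusted p up to 0.0301). In MLL-AF10 it stood at 10.31, 10.30 and 10.35 log2 units with DMSO and at 10.53, 10.45 and 10.54 with DOX (0.19 ± 0.033, adjusted p = 0.000949 by limma). Between floxed and null libraries it fell from 540.1, 547.2 and 541.9 CPM to 323.3, 312.5 and 324.3 CPM (−0.76 ± 0.030, 1.70-fold lower, adjusted p = 2.72e-19 by edgeR). The groups were far apart beside their spread, with SDs of 3.71 and 6.52 CPM. In CALM-AF10 it was at 262.7 ± 6.14 CPM on and 276 ± 8.71 CPM off (0.07 ± 0.044, adjusted p = 0.376), with overlapping groups.

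Ccnd2, the cyclin known for its induction by cytokine and STAT5 signals, fell in Jak1 null cells from 244.4, 257.5 and 234.3 CPM to 182.1, 190.6 and 195.3 CPM (−0.37 ± 0.038, adjusted p = 7.8e-10 by edgeR). In MLL-AF9 it was at 78.4, 72.9 and 80.5 FPKM with DMSO and at 94.8, 95.7 and 104.4 FPKM with DOX (0.34 ± 0.077, adjusted p = 0.0302 by limma). The groups did not overlap, but this call was lost without DMSO 1, DMSO 2, DMSO 3, DOX 2 or DOX 3 (adjusted p 0.0803, 0.104, 0.069, 0.0647 and 0.0777) and with eBayes without trend (0.0723). It was not called in MLL-AF10 (0.06 ± 0.031, adjusted p = 0.236) or in CALM-AF10 (−0.02 ± 0.086, adjusted p = 0.932). In the latter, off 3 held 332.2 CPM against 428.2 and 428 CPM in off 1 and off 2, and without off 3 the change was 0.09 (adjusted p = 0.107).

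Ccnd1, the D cyclin best known from epithelial tumours, was scarce in both CALM-AF10 models and abundant in MLL-AF9. It was low in MLL-AF10 too, with a DMSO mean of 4.18 log2 units where the filter began at 3.32. Ccnd2 stood there at 10.81 and Ccnd3 at 10.32, values that are not scaled to length. With CALM-AF10 on Ccnd1 held 3.93, 7.13 and 7.24 CPM and with CALM-AF10 off 2.04, 2.68 and 4.46 CPM, from 54 to 292 raw counts a library. On 1 lay below off 3, so the groups overlapped. Its change was −1.14 ± 0.29, the largest of the members in that table, but missed the threshold (adjusted p = 0.0564 by edgeR). It passed with DESeq2 (adjusted p = 0.00506), without the filter on low counts (0.0194), without on 1 (0.0246) and without off 3 (0.0163). From floxed to null libraries it rose from 5.81, 6.06 and 5.25 CPM to 6.28, 8.18 and 8.66 CPM (0.43 ± 0.14, adjusted p = 0.0121 by edgeR), from 62 to 112 counts a library. That call was lost with DESeq2 (adjusted p = 0.0523), without floxed 3 (0.0542) and without null 3 (0.069). In MLL-AF10 its values of 4.181, 4.203 and 4.158 log2 units with DMSO and 4.123, 4.104 and 4.119 with DOX differed by −0.07 ± 0.020 (adjusted p = 0.036 by limma). This call was lost without DMSO 1, DMSO 2, DOX 1, DOX 2 or DOX 3 (adjusted p 0.0545, 0.132, 0.0544, 0.133 and 0.0969) without the filter (0.0687) and with eBayes without trend (0.128). In MLL-AF9 it was at 60.1 ± 8.97 FPKM with DMSO and 68.5 ± 4.3 FPKM with DOX (0.19 ± 0.12, adjusted p = 0.331).

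**Figure D2:**
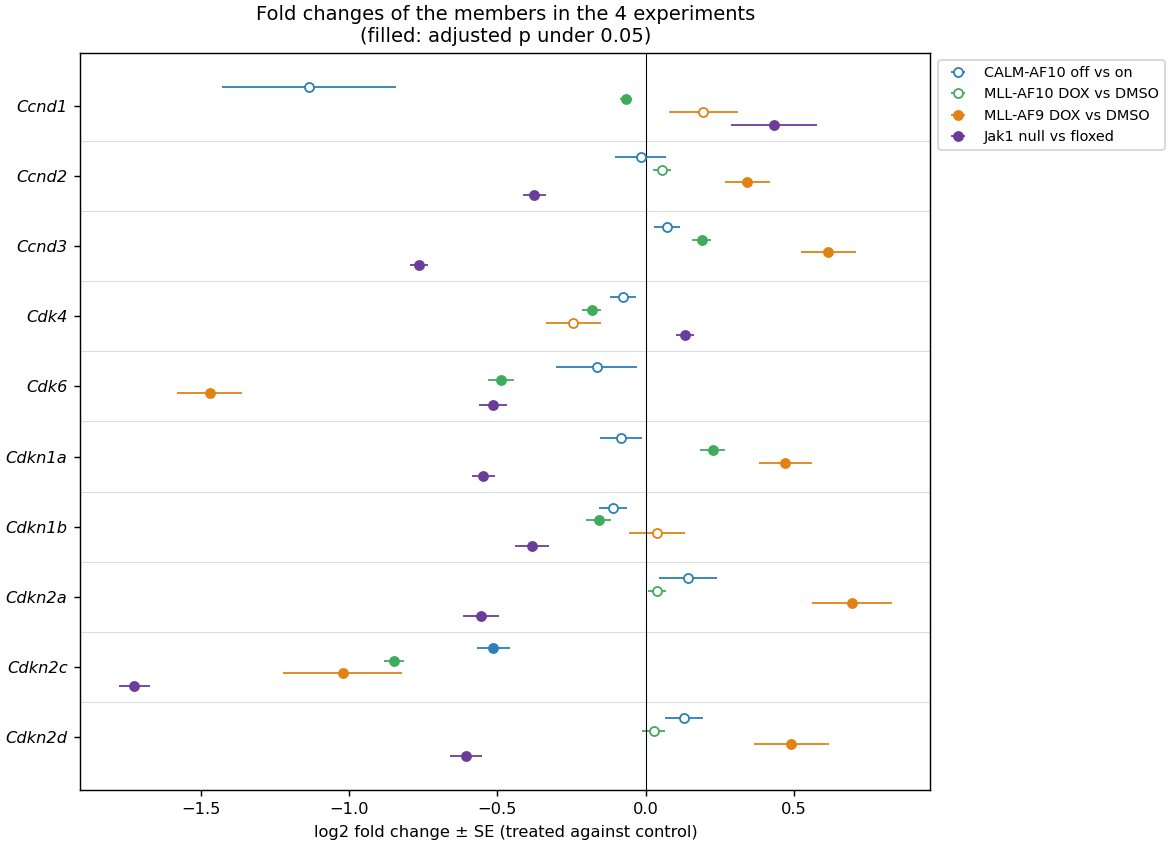
Log2 fold change of each member in the 4 comparisons, with the SE of the fit as bars. Filled points have an adjusted p under 0.05. Cdkn2c lies left of 0 with filled points in all 4 comparisons. Ccnd2, Ccnd3, Cdkn1a, Cdkn2a and Cdkn2d have filled points on opposite sides of 0 in MLL-AF9 and Jak1.

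Levels of different genes can be compared per length only, as CPM per kilobase of annotated exon or as FPKM. On that scale Ccnd1 made up 0.841 ± 0.251% of the summed D cyclin level with CALM-AF10 on, 0.423 ± 0.204% with it off, 0.521 ± 0.0329% in Jak1 floxed and 1.13 ± 0.182% in null cells. In MLL-AF9 its share was 26.2 ± 2.57% with DMSO and 22.3 ± 1.71% with DOX. Ccnd3 held the largest share in each of these groups, 61.8 ± 0.24% with CALM-AF10 on, 84.4 ± 0.566% in floxed cells and 40 ± 2.19% in MLL-AF9 with DMSO. Its share in Jak1 null cells was 80.1 ± 0.788%, with Ccnd2 at 18.7 ± 0.61% against 15.1 ± 0.535% in floxed cells. The CALM-AF10 and Jak1 models differ from each other and from MLL-AF9 in table and processing as well as in model, which cannot be told apart. The MLL-AF10 table gives no level per length.

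**Figure D3:**
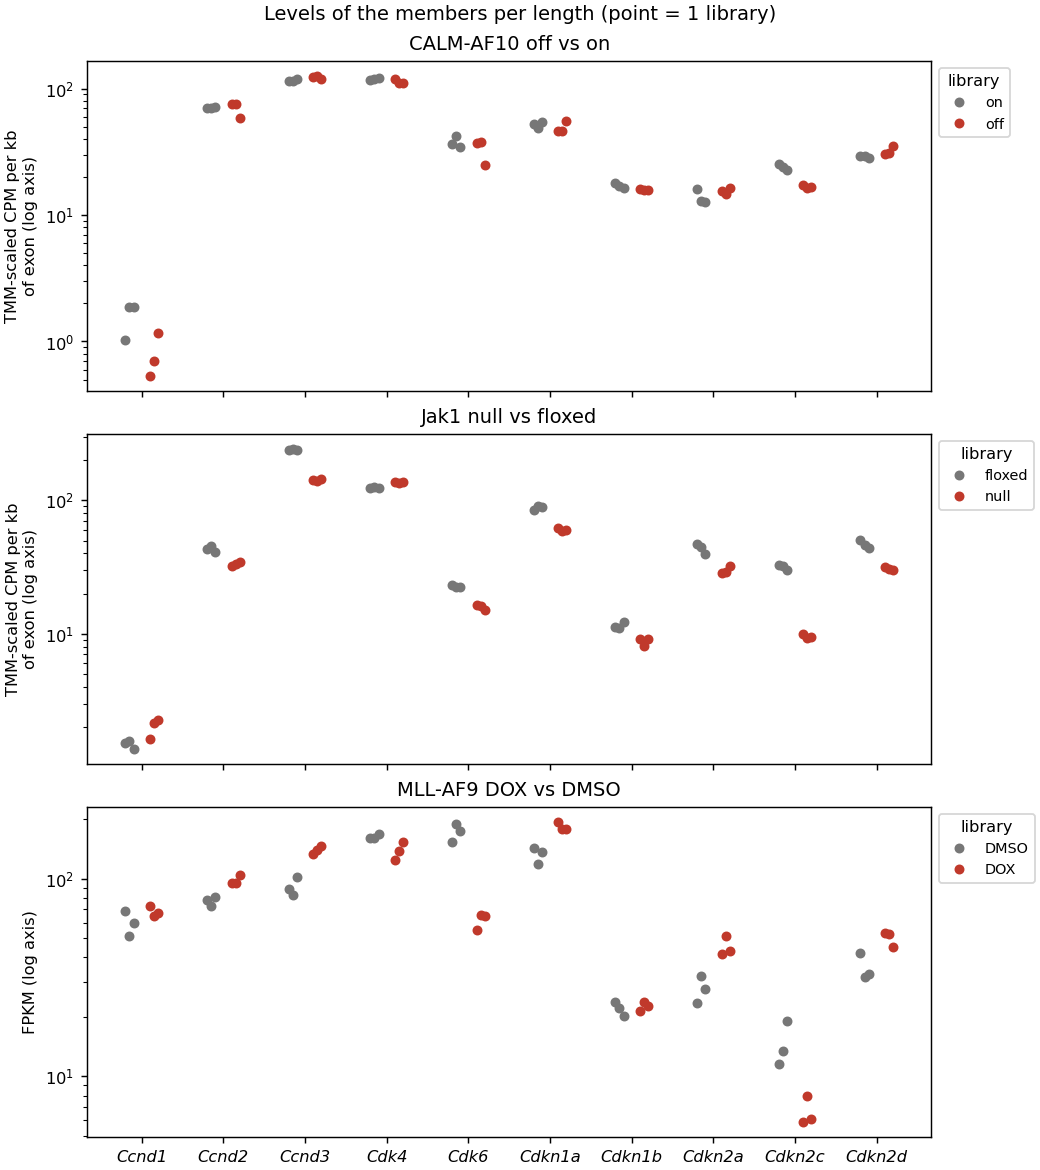
Level of each member per length in each library, on log axes: CPM per kilobase of exon for CALM-AF10 and Jak1, FPKM for MLL-AF9. Grey points are control libraries, red points off, null or DOX libraries. Ccnd1 lies between 0.533 and 2.26 CPM per kilobase in both CALM-AF10 models and between 51.2 and 73.3 FPKM in MLL-AF9.

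The kinase genes lie on chromosome 10 from 126500590 to 126504976 (Cdk4) and chromosome 5 from 3343893 to 3523218 (Cdk6) of mm9. RefSeq promoter windows, from 250 bases before to 50 after an annotated start (build GRCm38.p6), were given for 8 members, with 12 windows in all. Ccnd1 and Ccnd2 had none. Those of the kinases are shown because the E-box CACGTG, the site that MYC and related factors can bind, is in both. Capitals mark it. The Cdk4 window is chr10:127063285-127063584 and the Cdk6 window chr5:3343643-3343942, both on the plus strand:
Cdk4: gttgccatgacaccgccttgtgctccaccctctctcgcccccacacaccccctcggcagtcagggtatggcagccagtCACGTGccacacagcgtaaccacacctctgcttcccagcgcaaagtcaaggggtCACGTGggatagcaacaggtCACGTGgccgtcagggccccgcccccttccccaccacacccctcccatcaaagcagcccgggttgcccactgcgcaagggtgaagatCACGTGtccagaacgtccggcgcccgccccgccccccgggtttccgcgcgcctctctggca
Cdk6: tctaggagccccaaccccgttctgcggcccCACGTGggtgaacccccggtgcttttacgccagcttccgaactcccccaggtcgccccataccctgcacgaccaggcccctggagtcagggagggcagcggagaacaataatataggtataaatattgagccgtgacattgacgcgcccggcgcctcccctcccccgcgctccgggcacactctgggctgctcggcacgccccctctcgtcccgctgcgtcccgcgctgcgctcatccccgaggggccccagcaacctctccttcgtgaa
The Cdk4 window holds 4 copies and the Cdk6 window 1. Of 32851 promoter windows of this length 7.15% held at least 1 copy and 8 windows (0.0243%) held 4 or more. This motif reads the same on both strands, and it was searched after the sequences had been seen. A match of letters is a description and does not show that a factor binds there.

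Cdk6 fell in MLL-AF10, MLL-AF9 and Jak1, in which Cdk4 fell by less, was not called and rose. In MLL-AF9 Cdk6 went from 153, 190.3 and 175 FPKM with DMSO to 54.8, 65.5 and 65 FPKM with DOX (−1.47 ± 0.11, 2.77-fold lower, adjusted p = 0.000418 by limma). All DOX libraries lay far below all DMSO libraries, and no left-out library ended the call (adjusted p up to 0.00405). In MLL-AF10 its log2 values were 11.61, 11.68 and 11.68 with DMSO and 11.29, 11.09 and 11.13 with DOX (−0.49 ± 0.044, adjusted p = 3e-06 by limma). In Jak1 null cells it fell from 86.1, 84.1 and 83.8 CPM to 61.7, 60.1 and 56 CPM (−0.51 ± 0.048, adjusted p = 1.72e-10 by edgeR). With CALM-AF10 off it was not called (−0.16 ± 0.14, adjusted p = 0.522), and off 3 stood apart at 92.4 CPM beside 139.3 and 141.4 CPM in off 1 and off 2. The on libraries held 137.2, 156.7 and 129.7 CPM, and without off 3 the change was −0.005.

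Cdk4, the other partner of the D cyclins, changed by less. It fell in MLL-AF10 from 10.71, 10.63 and 10.63 log2 units to 10.50, 10.48 and 10.44 (−0.18 ± 0.033, adjusted p = 0.00108 by limma). In the null libraries it rose from 399.3, 410.2 and 403.8 CPM to 447.7, 439.3 and 443.6 CPM (0.13 ± 0.030, adjusted p = 0.000394 by edgeR). The 2 groups of each pair did not overlap. In MLL-AF9 the DMSO libraries at 161.7, 160 and 169.4 FPKM all lay above the DOX libraries at 124, 137.8 and 154 FPKM, yet the gene was not called (−0.24 ± 0.092, adjusted p = 0.138). In CALM-AF10 it was at 387 ± 7.48 CPM on and 366.8 ± 14.8 CPM off (−0.08 ± 0.045, adjusted p = 0.36).

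The balance of the kinases, taken as the log2 ratio of Cdk6 to Cdk4 within a library, does not depend on the scaling of libraries. It went from 0.07 ± 0.17 to −1.15 ± 0.087 in MLL-AF9 (difference −1.22), from 1.00 ± 0.084 to 0.70 ± 0.089 in MLL-AF10 (−0.30) and from −2.26 ± 0.038 to −2.90 ± 0.070 in Jak1 (−0.65). In each of these the groups did not overlap, and the two-sided exact permutation p was 0.1, the smallest that 3 against 3 libraries allow. Permuted within the same-numbered pairs of MLL-AF10, it was 0.25 (exact permutation), the smallest that 3 pairs allow. In CALM-AF10 the ratio was −1.46 ± 0.15 on and −1.59 ± 0.33 off (exact permutation p = 0.7), and without off 3 the difference turned from −0.13 to 0.06. Per length, Cdk6 made up 51.3 ± 2.87% of the summed level of both kinases in MLL-AF9 with DMSO and 30.8 ± 1.3% with DOX. It made up 24.1 ± 1.87% with CALM-AF10 on, 15.4 ± 0.342% in floxed and 10.4 ± 0.45% in null cells. The lengths used for CPM joined all annotated exons of a gene, 3249 bases for Cdk4 and 3735 for Cdk6, and may exceed those of the main transcripts. The FPKM values were deposited with lengths not known here, so these shares are to be read within an experiment.

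The log2 ratio of Ccnd2 to Ccnd3 was lower with DOX in both MLL models and higher in the Jak1 null libraries. The difference was −0.13 in MLL-AF10, −0.27 in MLL-AF9 and 0.39 in Jak1, each with groups that did not overlap (exact permutation p = 0.1, and 0.25 within the same-numbered pairs of MLL-AF10). In CALM-AF10 it was 0.61 ± 0.016 on and 0.51 ± 0.17 off (exact permutation p = 0.6), where off 3 at 0.32 stood below off 1 at 0.62 and off 2 at 0.60.

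**Figure D4:**
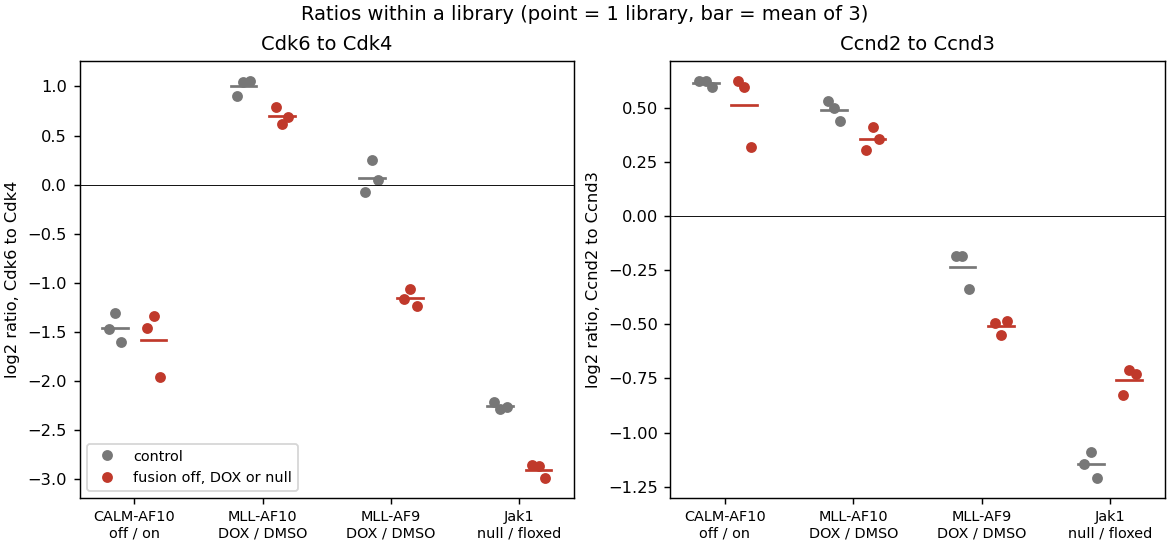
Log2 ratio of Cdk6 to Cdk4 (left) and of Ccnd2 to Ccnd3 (right) in each library, with bars at the mean of 3. Grey points are control libraries, red points off, DOX or null libraries. The Cdk6 to Cdk4 ratio of MLL-AF9 lies between −0.08 and 0.25 with DMSO and between −1.23 and −1.06 with DOX. Levels of the ratio are not per length and are to be read within an experiment.

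Of the Cip/Kip genes, Cdkn1a (chromosome 17 from 29227924 to 29237667) encodes p21, a target of p53, and Cdkn1b (chromosome 6 from 134870419 to 134875531) encodes p27. The first Cdkn1a window, chr17:29090729-29091028 on the plus strand of GRCm38.p6, is shown because it holds the p53 core motif, a pair of CATG cores set apart by a short spacer, in capitals:
Cdkn1a: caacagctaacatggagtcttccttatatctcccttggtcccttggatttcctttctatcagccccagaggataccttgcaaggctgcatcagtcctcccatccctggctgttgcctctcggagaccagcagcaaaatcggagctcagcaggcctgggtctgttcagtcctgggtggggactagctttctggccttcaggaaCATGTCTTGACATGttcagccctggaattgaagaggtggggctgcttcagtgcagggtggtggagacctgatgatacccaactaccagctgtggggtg
Of all windows 0.712% held this motif, on either strand, and it too was searched after the sequences had been seen.

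Cdkn1a rose with DOX in both MLL models and fell in the libraries labelled Jak1 null. In MLL-AF9 it went from 143.1, 119 and 136.3 FPKM to 193.9, 178.2 and 179.7 FPKM (0.47 ± 0.090, adjusted p = 0.0161 by limma). All DOX libraries lay above all DMSO libraries, and the call was lost without DMSO 3 (adjusted p = 0.0527). In MLL-AF10 its log2 values were 9.16, 9.17 and 9.13 with DMSO and 9.28, 9.46 and 9.41 with DOX (0.23 ± 0.042, adjusted p = 0.00143 by limma). Mdm2, which encodes the ligase that degrades p53 and is itself a p53 target, fell in that table from 10.19 ± 0.15 to 9.21 ± 0.0078 (−0.98, adjusted p = 2.48e-08), while Trp53 was not called (−0.09, adjusted p = 0.0988). Mdm2 was not called in CALM-AF10 (−0.10, adjusted p = 0.356), MLL-AF9 (0.18, 0.389) or Jak1 (−0.06, 0.256). In Jak1 null cells Cdkn1a fell from 188.1, 202.1 and 198.5 CPM to 138.4, 131.6 and 133 CPM (−0.55 ± 0.038, 1.46-fold lower, adjusted p = 2.59e-13 by edgeR). In CALM-AF10 it was at 115.7 ± 5.86 CPM on and 109.9 ± 11.1 CPM off (−0.08 ± 0.070, adjusted p = 0.527).

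Cdkn1b fell in Jak1 null cells from 51.5, 50.1 and 55.4 CPM to 41.8, 36.7 and 41.8 CPM (−0.38 ± 0.057, adjusted p = 1.46e-06 by edgeR). In MLL-AF10 its log2 values of 8.84, 8.97 and 8.92 with DMSO and 8.68, 8.77 and 8.80 with DOX differed by −0.16 ± 0.041 (adjusted p = 0.0144 by limma). That call was lost without DMSO 2, DMSO 3 or DOX 1 (adjusted p 0.077, 0.0539 and 0.0604). In CALM-AF10 the on libraries at 81.9, 77.95 and 74.3 CPM all lay above the off libraries at 72.85, 72.2 and 71.7 CPM, but the gene was not called (−0.11 ± 0.048, adjusted p = 0.224). In MLL-AF9 it was at 22.1 ± 1.79 FPKM with DMSO and 22.6 ± 1.12 FPKM with DOX (0.04 ± 0.096, adjusted p = 0.835). The third Cip/Kip gene, Cdkn1c, which encodes p57 and is no member here, fell with CALM-AF10 off (1.92 ± 0.423 to 1.06 ± 0.0884 CPM, −0.88, adjusted p = 0.0455) and in Jak1 null cells (17.2 ± 1.75 to 9.14 ± 0.785 CPM, −0.91, adjusted p = 1.44e-08). In both MLL models Cdkn1c lay below the filter and was not tested. In MLL-AF9 it was at 0.17 ± 0.139 FPKM with DMSO and 0.878 ± 0.617 FPKM with DOX.

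The INK4 genes lie on chromosome 4 from 109333481 to 109339794 (Cdkn2c, encoding p18), on chromosome 4 from 88920377 to 88940557 (Cdkn2a) and on chromosome 9 from 21092907 to 21095653 (Cdkn2d, encoding p19 of the INK4 family). Cdkn2a encodes both p16 and, from another first exon and reading frame, the p53 activator ARF. A gene total does not separate these transcripts. The second Cdkn2c window, chr4:109665323-109665622 on the minus strand of GRCm38.p6, is shown because Cdkn2c fell in all comparisons and this window was the only 1 of the 12 with a match to TGATTNAT, the joint motif of HOX and MEIS or PBX factors. Capitals mark that match, which is on the opposite strand, and further on an E-box:
Cdkn2c: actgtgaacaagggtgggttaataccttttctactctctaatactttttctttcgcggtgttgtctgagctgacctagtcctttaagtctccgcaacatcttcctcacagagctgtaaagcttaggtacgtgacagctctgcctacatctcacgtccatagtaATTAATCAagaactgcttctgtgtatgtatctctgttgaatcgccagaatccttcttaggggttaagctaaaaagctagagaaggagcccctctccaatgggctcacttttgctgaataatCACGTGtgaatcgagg
TGATTNAT is in 3.22% of all windows. The STAT motif TTCNNNGAA (8.3% of all windows) and the E2F motif TTTGGCGC (0.514%) are in 0 of the 12 windows, and the E2F motif TTTCCCGC (1.07%) is in 1, the first of Cdkn2a. All motifs were searched on both strands. Ccnd1 and Ccnd2 had no window, so these counts do not cover their promoters.

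**Figure D5:**
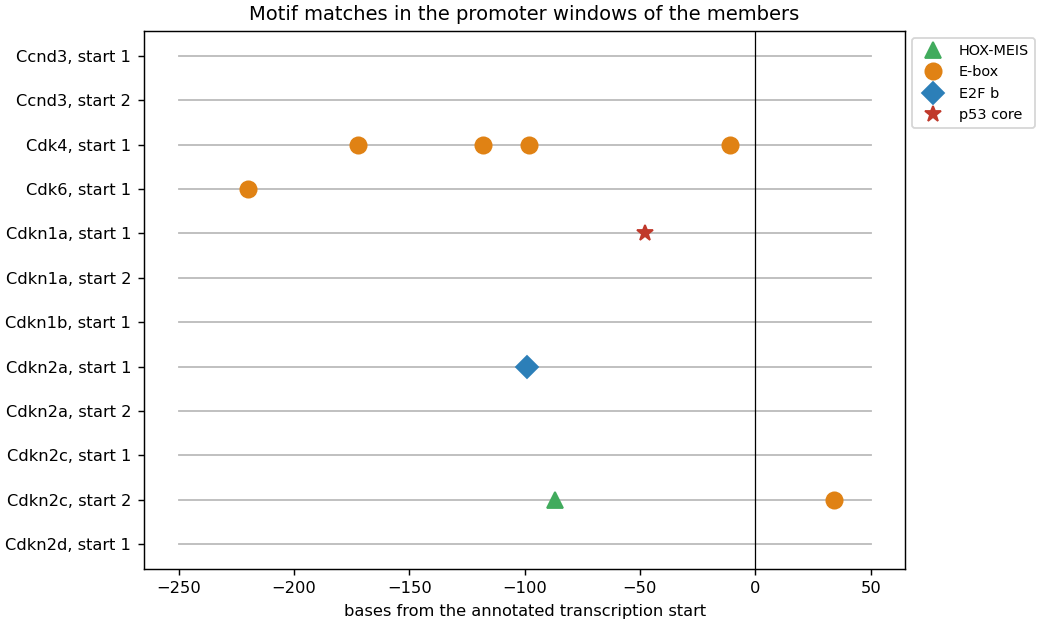
Positions of motif matches in the 12 promoter windows, in bases from the annotated start, which is at 0. Each symbol marks the base of 1 match that lies farthest upstream. The Cdk4 window holds 4 E-boxes, at −172, −118, −98 and −11, and the second Cdkn2c window the HOX-MEIS match at −87 and an E-box at 34.

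Cdkn2c fell in Jak1 null cells from 88, 86.2 and 81.2 CPM to 27, 24.9 and 25.6 CPM (−1.72 ± 0.052, 3.30-fold lower, adjusted p = 2.57e-22 by edgeR). With CALM-AF10 off it fell from 67.9, 64.5 and 60.7 CPM to 46.5, 43.9 and 44.6 CPM (−0.51 ± 0.055, 1.43-fold lower, adjusted p = 0.00153 by edgeR), with the call kept without any 1 library (adjusted p up to 0.0129). With DOX it fell in MLL-AF10 from 9.40, 9.46 and 9.49 log2 units to 8.58, 8.62 and 8.60 (−0.85 ± 0.034, adjusted p = 7.7e-10 by limma). In MLL-AF9 it went from 11.5, 13.5 and 19.1 FPKM to 5.89, 7.97 and 6.06 FPKM (−1.02 ± 0.20, adjusted p = 0.0178 by limma). The groups did not overlap in any of the 4 comparisons. Its DMSO libraries in MLL-AF9 were the most scattered, and that call was lost without DMSO 2 (adjusted p = 0.0591) or DOX 3 (0.053).

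Cdkn2a and Cdkn2d rose in MLL-AF9 and fell in Jak1 null cells. Cdkn2a went from 23.4, 32.2 and 27.6 FPKM with DMSO to 41.7, 51.4 and 43 FPKM with DOX (0.69 ± 0.14, adjusted p = 0.0176 by limma), a call lost without DMSO 1, DMSO 3 or DOX 2 (adjusted p 0.0506, 0.0607 and 0.0528). Cdkn2d went from 42.3, 32 and 32.8 FPKM to 53.1, 52.6 and 45.1 FPKM (0.49 ± 0.13, adjusted p = 0.0475 by limma). That call sat close to the threshold and was lost without DMSO 2, DMSO 3, DOX 1, DOX 2 or DOX 3 (adjusted p 0.147, 0.148, 0.106, 0.117 and 0.0535) without the filter on low values (0.0678) and with eBayes without trend (0.0833). From floxed to null libraries Cdkn2a fell from 55.2, 52.7 and 46.7 CPM to 33.6, 34.1 and 37.5 CPM (−0.56 ± 0.061, adjusted p = 5.38e-09 by edgeR). Cdkn2d fell there from 63.8, 58.5 and 56 CPM to 40, 38.7 and 38.4 CPM (−0.61 ± 0.054, adjusted p = 5.38e-11 by edgeR). The groups did not overlap for either gene in either comparison.

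Neither gene was called in the AF10 fusion models. Cdkn2a changed by 0.14 ± 0.096 with CALM-AF10 off (adjusted p = 0.426) and by 0.04 ± 0.031 with DOX in MLL-AF10 (0.413). Cdkn2d changed by 0.13 ± 0.064 (adjusted p = 0.268) and 0.03 ± 0.040 (0.692). The remaining INK4 gene, Cdkn2b, which lies next to Cdkn2a on chromosome 4 from 88952198 to 88956941 and encodes p15, fell in Jak1 null cells (29, 48 and 30 counts against 9, 4 and 11, −2.16, adjusted p = 6.54e-07 by edgeR). It was not called in CALM-AF10 (−0.29, adjusted p = 0.395 by edgeR) or in MLL-AF9 (0.58, adjusted p = 0.334 by limma). In MLL-AF10 it lay below the filter.

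E2F target and replication genes act downstream of the Cdk4 and Cdk6 complexes. Of 22 such genes 0 rose, 9 fell and 13 were not called with DOX in MLL-AF9, where 4.54% of all genes fell, with a median log2 fold change of −0.35 against −0.02 for all genes. Among them were the helicase subunit gene Mcm5 (81.5 ± 3.65 to 59.5 ± 1.73 FPKM, adjusted p = 0.00841), the ribonucleotide reductase gene Rrm2 (100.8 ± 2.7 to 78.9 ± 0.897, adjusted p = 0.0145) and the thymidine kinase gene Tk1 (50.7 ± 3.93 to 37.7 ± 1.67, adjusted p = 0.0227), all by limma. In Jak1 null cells 18 of the 22 rose and 1 fell, where 27.4% of all genes rose (median 0.24 against 0.01), with the helicase subunit gene Mcm6 at 416.3 ± 12.2 and 610.6 ± 7.9 CPM, Mcm5 at 327.1 ± 9.87 and 439 ± 6.59 CPM and the DNA methyltransferase gene Dnmt1 at 504.8 ± 4.68 and 635 ± 23.2 CPM (adjusted p from 9.74e-16 to 1.77e-10 by edgeR). In MLL-AF10, where 9.17% of all genes fell, 0 of the 22 rose and 3 fell, namely Mcm6 (−0.14), Pcna (−0.12) and Mcm4 (−0.10). In CALM-AF10 0 of 22 rose or fell by edgeR, and the difference between comparisons was not tested.

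The counts of the smaller lists are to be read against the shares of all genes, above all in Jak1, where 27.4% rose and 28.3% fell. Of 12 mitosis genes 3 rose and 4 fell in Jak1 null cells, 1 rose and 2 fell in MLL-AF10, 1 rose in CALM-AF10 and 0 were called in MLL-AF9, and the Jak1 counts are near that background. Of 13 E2F and pocket protein genes 6 rose and 2 fell in Jak1, among them E2f6 (0.51), Tfdp1 (0.24) and Rbl2 (0.28), which rose. In MLL-AF9 0 rose and 2 fell, E2f6 (−0.66) and the E2F partner gene Tfdp1 (−0.38), in MLL-AF10 only Rb1 rose (0.14, adjusted p = 0.027), and in CALM-AF10 0 were called. The list for cyclin E, cyclin A and Cdk2 function also holds the inhibitor genes Cdkn1c and Cdkn2b described above. From this list Ccne2, a cyclin E gene, fell with CALM-AF10 off (−0.31, adjusted p = 0.0346 by edgeR) and with DOX in MLL-AF9 (−0.64, adjusted p = 0.015 by limma). In CALM-AF10 2 of 13 tested fell, the other being Cdkn1c, and in MLL-AF9 Ccne2 was the 1 called of 12. In MLL-AF10 0 of 11 were called. In Jak1 4 rose and 5 fell of 13, with Cdkn1c and Cdkn2b among the fallen. Of 15 genes for the turnover of D cyclins and Cip/Kip proteins 0 were called in CALM-AF10, 1 fell in MLL-AF10 (Dtl, −0.11), 1 rose in MLL-AF9 (Fbxo31, 0.46), and 4 rose and 3 fell in Jak1. Fbxo31 encodes a ubiquitin ligase subunit that targets cyclin D1.

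Upstream regulators of D cyclins and p21 gave 2 rises and 1 fall among 16 tested in CALM-AF10, 3 and 2 among 15 in MLL-AF10, 3 and 1 among 15 in MLL-AF9 and 2 and 5 among 15 in Jak1. Bmi1, which encodes a Polycomb protein known to repress Cdkn2a, fell with CALM-AF10 off (81.2 ± 3.9 to 61.7 ± 8.42 CPM, −0.38, adjusted p = 0.0353) and rose in Jak1 null cells (63.1 ± 3.51 to 93.1 ± 5.01 CPM, 0.56, adjusted p = 7.54e-11). Myb, a transcription factor gene of progenitors, fell with DOX in MLL-AF9 (186.5 ± 5.51 to 94.1 ± 1.01 FPKM, −0.98) and in MLL-AF10 (−0.30). The immediate early gene Egr1 rose in MLL-AF9 (107 ± 8.91 to 342.2 ± 28.2 FPKM, 1.67) and fell in Jak1 (19.5 ± 0.479 to 12.3 ± 0.332 CPM, −0.66). Cebpa (0.45, adjusted p = 0.0191) and Gfi1 (0.20, 0.0466) rose with CALM-AF10 off by edgeR. Gfi1 also rose in MLL-AF10 (0.20), Pim1 rose in MLL-AF9 (0.54) and Foxo3 fell in Jak1 (−0.45). Of 10 housekeeping genes 0 were called in CALM-AF10 and MLL-AF9 and 1 rose and 1 fell in MLL-AF10. In Jak1 3 rose and 4 fell, with Gapdh at −0.76 and Actb at −0.47, sizes like those of Ccnd3 and Cdk6 in that comparison.

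Across the 24 libraries, with log2 values centred on the mean of their own table, Ccnd3, Cdkn1a, Cdkn2a and Cdkn2d varied together, with Pearson r from 0.73 (Cdkn1a with Cdkn2a) to 0.90 (Ccnd3 with Cdkn1a). Ccnd2 varied with these genes too, at 0.89 with Ccnd3, 0.73 with Cdkn1a, 0.70 with Cdkn2a and 0.68 with Cdkn2d. Cdkn2c varied most like Cdk6 among the members (0.76), and Cdk4 ran against Cdkn1a (−0.72). These values describe group differences as well as library differences and carry no test. From the 9706 genes tested in all 4 tables, repeat rows of a symbol and names with a Gm number, a Rik ending or a leading number and dash were left out. Among the rest, the gene most like Ccnd3 was Abcg1 (0.97), and the one most like Cdk6 was Mbnl1 (0.97). The one most like Cdkn2d was Sertad1 (0.95), the one most like Cdkn2a was Klc1 (0.95) and the one most like Cdkn2c was Pmaip1 (0.94). For Cdkn1a it was Capn2 (0.94), for Ccnd2 Tmem135 (0.93), for Cdk4 Fubp1 (0.91), for Cdkn1b Pgm2 (0.89) and for Ccnd1 Xaf1 (0.81).

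In the authors' deposited table of gene lists, Cdkn2c is the 1 member among the 25 genes listed as common to the 3 fusions. Ccnd1 is the 1 member among the 142 genes listed as common to the AF10 fusions only. Of the genes the authors' deposited table lists as down with CALM-AF10 off (359), 2 are members, Ccnd1 and Cdkn2c. Of those it lists as down with MLL-AF10 off (966), 5 are members, and these are the 5 that fell with DOX here. Of those listed as down with MLL-AF9 off (887), 2 are members, Cdk6 and Cdkn2c, the 2 that fell with DOX here. The authors' deposited table was made from these samples and is no independent evidence.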

How the data were processed

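Sequencing libraries came from the Illumina TruSeq kit (per the labels). Bowtie 0.12.2 and mm9 are named in the submitters' processing notes, and no counting tool is named. The authors deposited read counts per gene for CALM-AF10 and, in a table named FPKM that holds whole numbers, for Jak1. The authors deposited log2 values for MLL-AF10, by an unstated transformation, and FPKM values for MLL-AF9. Because the Jak1 table holds counts, the count test was used for it.

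Libraries were grouped by title; CALM-AF10 and Jak1 columns by the on, off, DMSO and deletion in their names, with DMSO taken as floxed. Each table was tested alone, 3 libraries against 3. Counts were tested with edgeR 4.0.16 (filterByExpr, TMM, quasi-likelihood test; R 4.3.3) and, as an alternative, DESeq2 1.42.0. limma 3.58.1 (eBayes with trend) tested log2 values averaging 3.32 or more and log2(FPKM + 1) of genes averaging 1 FPKM or more. The pseudocount makes changes of low genes look smaller. Benjamini-Hochberg adjustment ran over all genes of a table. Ratios were compared by exact permutation over libraries. The fits were tested on simulated data.

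The members, lists and marker genes were chosen with earlier results of these data known. Named were all members and the gene most correlated with each member. Names from the lists were taken from the up to 3 called genes with the smallest adjusted p in each comparison, and not all of these are printed. Mdm2 and Trp53 beside Cdkn1a, Cdkn1c, Cdkn2b and the loci of fusions and Jak1 were added. Alternatives were other scalings, filters, pseudocounts, each library left out and the replicate number as a block. In MLL-AF10 same-numbered libraries deviated together from their group means, with correlations of 0.40, 0.20 and 0.19 for the 3 pairs, all over 0.1. The labels state no pairing, so this is a hint from the data, and the main test did not use it. The block changed no call of a member there.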

Additional observations from a re-analysis of the deposited data

How the results depend on the processing

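Of 498 alternative fits of members, 454 kept the direction and the side of the threshold, 35 lost a call, 6 gained one and 3 changed sign. The 3 were uncalled: Ccnd2 in CALM-AF10 without off 3 (−0.071 to 0.093 over the libraries left out), Cdkn2d in MLL-AF10 without DOX 1 (−0.0013 to 0.071) and Cdkn1b in MLL-AF9 without DMSO 3 (−0.020 to 0.092). The calls of Cdkn2c in CALM-AF10, MLL-AF10 and Jak1, of Cdk6 and Ccnd3 in both MLL models and Jak1, and of the members other than Ccnd1 in Jak1 were kept in all alternatives run. With CALM-AF10 off 1 member was called, and 2 (Ccnd1 added) with DESeq2 with or without its independent filtering, without the filter, and with the replicate block; the cause was not tested.

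The number of genes called depended on single libraries. It was 648 in CALM-AF10 (146 to 944 with 1 library left out: 343, 146, 163 and 253 when the library left out was on 1, on 2, on 3 or off 2), 2089 in MLL-AF10 (1307 to 2396: 1307 without DOX 2 and 1311 without DOX 3) and 1281 in MLL-AF9 (648 to 1036: 764, 648 and 683 without DMSO 1, DMSO 2 and DMSO 3). Members called ranged from 1 to 2, 5 to 6 and 3 to 6 in these, and from 9 to 10 in Jak1. A comparison with 1 library left out has fewer libraries, which by itself lowers the number of calls. The log2 ratio of Cdk6 to Cdk4 in CALM-AF10 ranged from −0.25 to 0.057 and changed sign without off 3, the library with the lowest depth.

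With the replicate number as a block, genes called were 1048 in CALM-AF10, 3102 in MLL-AF10 and 781 in MLL-AF9. Same-numbered libraries deviated together at r = 0.41, 0.23 and 0.08 in CALM-AF10. In MLL-AF9 and Jak1 r lay between −0.03 and 0.02, so the values show no pairing there, and the labels state none. Every off library, but only 2 of 3 on libraries, correlated best with its own number in CALM-AF10, a hint from the data and not the design. In MLL-AF9 the block ended the calls of Ccnd2 (adjusted p = 0.062) and Cdkn2d (0.0542), and in CALM-AF10 it gave one to Ccnd1 (0.00422); it changed no other call of a member. Ccnd1 rests on 54 to 292 counts a library in CALM-AF10 and 62 to 112 in Jak1, which limits its precision.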
